A study of Mus musculus with 2 samples.

Results

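The liver carboxylesterases described here are 10 mouse genes of the Ces1, Ces2 and Ces3 groups, out of 18193 named genes on the array. They are a fixed list by gene name, chosen with earlier results of these data known, and other genes of these groups lie outside it. The list holds Ces1c, Ces1d, Ces1e, Ces1f, Ces1g, Ces2a, Ces2c, Ces2e, Ces3a and Ces3b. On the array, 7 of these genes had probe sets (groups of short probes for the same transcript) annotated to that gene alone. Ces3a and Ces3b shared a single probe set that cannot tell them apart. No probe set was annotated to Ces2c, so its transcript was not analysed here. The family was therefore read by 10 probe sets, which gave 8 values, 1 for each of the 7 genes and 1 for Ces3a and Ces3b together.

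Livers came from C57BL/6J mice aged 2 months that had received 1000000000 plaque-forming units of adenovirus by the tail vein, and were taken on day 3. The Ad-PDK4 group had been given a vector that overexpresses PDK4, a kinase that switches off the mitochondrial pyruvate dehydrogenase complex, and the Ad-control group an empty vector, so both groups carried adenovirus. Material of 3 mice (Ad-PDK4) and of 4 mice (Ad-control) was pooled before labelling, and 10 ug RNA of each pool went onto 1 array. With n = 1 array per group there is no measure of the spread between animals, no test was made, and each value compares these 2 pools.

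Carboxylesterases are serine hydrolases that split esters, amides and thioesters. Most are held in the lumen of the endoplasmic reticulum of hepatocytes, where they activate or clear ester drugs and also hydrolyse stored lipid esters, and some supply fatty acids for very-low-density lipoprotein. The mouse genes lie as tandem copies on chromosome 8, with the Ces1 genes in a first cluster and the Ces2 and Ces3 genes in a second. In liver, several are known targets of the xenobiotic receptors CAR and PXR.

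In the liver pool labelled Ad-PDK4, most of the listed carboxylesterase transcripts read moderately lower than in the Ad-control pool. On the log2 scale, relative to the median probe set, 7 of the 8 values lay below 0 and 1 above, with a median of -0.32, which became 0.22 when the arrays were centred on the poly-A spike-in controls. Over all genes measured, 46.7% lay below 0. Of the Ces1 and Ces2 genes outside the list, Ces2b (0.45) and Ces2g (0.25) lay above 0. Ces1h, below the floor described below in the Ad-control pool, was at least 1.37-fold higher. In bulk tissue, fewer cells of a type and less RNA per cell cannot be told apart, and this applies to every value given here. Ces2a, a carboxylesterase of liver and gut, had the lowest value, at 64.3% of its Ad-control signal after centring. Ces1g, the shared Ces3a and Ces3b probe set, Ces1f and Ces1d came next, between 75.3% and 81.9%. Ces1c (91.3%), Ces2e (93.3%) and Ces1e (105.0%) lay closest to their Ad-control signal.

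The promoters of 2 pairs are printed, each the lowest and the highest measured member with a promoter entry in its group (Ces2 or Ces1), so chosen by their values. The sequences are those of RefSeq on GRCm38.p6, the 250 bases upstream of the annotated start, written 5′ to 3′ on the gene's strand. A promoter was found for 7 of the 10 members, among them Ces2a (chr8:104733753-104734002, plus strand) and Ces2e (chr8:104926010-104926259, plus strand). Capitals mark the longest run of bases that both promoters share.
Ces2a: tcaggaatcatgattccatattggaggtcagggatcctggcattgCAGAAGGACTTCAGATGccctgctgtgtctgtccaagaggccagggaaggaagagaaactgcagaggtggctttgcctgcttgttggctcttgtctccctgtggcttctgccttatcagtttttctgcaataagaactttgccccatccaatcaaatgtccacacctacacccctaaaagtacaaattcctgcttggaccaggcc
Ces2e: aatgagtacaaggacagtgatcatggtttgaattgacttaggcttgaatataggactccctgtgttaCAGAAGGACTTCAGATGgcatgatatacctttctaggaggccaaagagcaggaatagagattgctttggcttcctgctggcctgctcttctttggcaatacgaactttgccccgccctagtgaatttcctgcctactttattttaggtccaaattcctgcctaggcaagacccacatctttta

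The shared run CAGAAGGACTTCAGATG starts 205 bases before the start of Ces2a and 183 bases before that of Ces2e. On either strand it occurred in 2 of 32851 upstream windows of the RefSeq table (0.00609%). These are the Ces2a and Ces2e windows from which it was taken, so the count is no measure of its rarity. Ces2a gave a log2 difference of -0.64 and Ces2e one of -0.10. The run was found by comparing the letters, and no factor is assigned to it.

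Within the Ces1 cluster, the corresponding pair is Ces1e (chr8:93229620-93229869, minus strand) and Ces1g (chr8:93337210-93337459, minus strand). Capitals again mark the longest run that they share.
Ces1e: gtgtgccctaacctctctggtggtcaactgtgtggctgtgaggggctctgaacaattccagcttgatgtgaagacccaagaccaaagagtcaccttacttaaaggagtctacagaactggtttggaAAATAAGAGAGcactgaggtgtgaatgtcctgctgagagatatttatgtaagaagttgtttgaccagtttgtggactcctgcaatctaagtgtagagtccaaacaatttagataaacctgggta
Ces1g: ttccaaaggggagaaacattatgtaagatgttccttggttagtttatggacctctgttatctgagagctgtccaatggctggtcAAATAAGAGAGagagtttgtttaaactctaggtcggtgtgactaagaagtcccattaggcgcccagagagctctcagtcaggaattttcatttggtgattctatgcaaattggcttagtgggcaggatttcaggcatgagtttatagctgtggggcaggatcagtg

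The run AAATAAGAGAG starts 124 bases before the start of Ces1e and 166 bases before that of Ces1g. On either strand, 8 of 32851 windows (0.0244%) hold it, the Ces1e and Ces1g windows from which it was taken among them. Ces1e had a log2 difference of 0.07 and Ces1g one of -0.41. Between other pairs of members the longest shared run had 7 to 11 bases.

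The 2 arrays had the same trimmed mean signal. Signals ranged from 0.1 to 136056 in the table, and their mean after trimming 2% of probe sets from each end was 500 on both arrays. A difference therefore says how a transcript stood relative to the rest of its own pool. The spike-in controls read lower on the Ad-PDK4 array, with median log2 differences before centring of -0.27 (hybridization) and -0.56 (poly-A). The median signals of the non-control probe sets, 99.9 on the Ad-PDK4 array and 93.4 on the Ad-control array, were used as a floor, and all 10 carboxylesterase probe sets lay far above it. Probe sets of the same gene disagreed with an SD of 0.35 on the log2 scale over 4326 genes, and this is the only error scale available. It leaves out labelling, hybridization and the animals, and it became smaller when the floor was raised. The probe set of Pdk4 read 177 on the Ad-PDK4 array and 234 on the Ad-control array. Since it is not known here whether it reads the vector's transcript, it does not check the labels.

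All 12 measured hepatocyte markers were above the floor on both arrays, as the label liver requires. All 11 measured markers of pancreatic acinar cells were at least 1.5-fold higher in the Ad-PDK4 pool, against 11.0% of all values measured. Their summed signal was 91308 against 11475 in the Ad-control pool. Markers of dividing cells were also higher, 12 of 12 measured, with a summed signal of 27518 against 5966. Of these, 9 were above the floor on both arrays. The rest were above it in the Ad-PDK4 pool alone, so they could not read lower there. The part of acinar cells or of dividing cells in the carboxylesterase values was not tested.

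**Figure D1:**
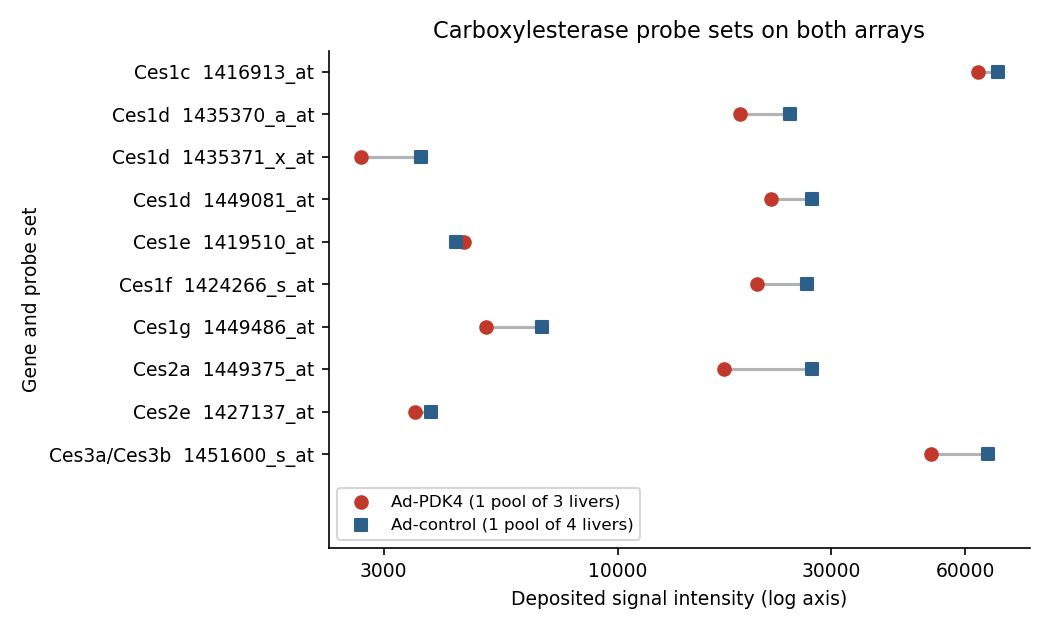
Deposited signal intensity (log axis) of each of the 10 carboxylesterase probe sets on the Ad-PDK4 array (circles, 1 pool of 3 livers) and the Ad-control array (squares, 1 pool of 4 livers), with no error bars because each group is 1 array. The Ad-PDK4 circle lies left of the Ad-control square for 9 probe sets and right of it for Ces1e alone.

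Relative to the median probe set, the secreted enzyme of the family was among the members that differed least. Ces1c encodes the carboxylesterase that liver releases into mouse plasma. Its probe set had a signal of 64115 on the Ad-PDK4 array, against 70953 on the Ad-control array, a log2 difference of -0.13. This is less than the SD between probe sets of the same gene. With the arrays centred on the poly-A controls, Ces1c would be at 0.41 and Ces2a, at -0.09, would lie nearest 0.

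Ces1d encodes triacylglycerol hydrolase, which releases fatty acids from stored triglyceride for lipoprotein assembly, and it is the one member with several probe sets. The brightest read 22077 in the Ad-PDK4 pool and 27240 in the Ad-control pool, a log2 difference of -0.29. The _a_at probe set, of the kind that covers several transcripts of a gene, read 18747 in Ad-PDK4 and 24269 in Ad-control (-0.36). The _x_at probe set, of the kind that can cross-match other sequences, read 2665 in Ad-PDK4 and 3633 in Ad-control (-0.43). All 3 probe sets placed Ces1d lower in the Ad-PDK4 pool, and their SD of 0.072 was below the 0.35 found over all genes. That direction holds relative to the median probe set, and the value of the brightest probe set would be 0.25 with the arrays centred on the poly-A controls.

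Ces1f, also known as TGH-2 and a relative of Ces1d, read 20466 in the Ad-PDK4 pool and 26519 in the Ad-control pool, a log2 difference of -0.36. Its only probe set is of the _s_at kind, which can match several transcripts, so part of its signal may belong to related Ces1 genes. Ces1g, which takes part in hepatic lipid handling in mice, read 5074 in Ad-PDK4 and 6793 in Ad-control, a log2 difference of -0.41. Both values were just beyond 1 SD of probe set disagreement.

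Ces1e encodes egasyn, which anchors part of the beta-glucuronidase of the cell in the endoplasmic reticulum. It was the one member with the higher signal in the Ad-PDK4 pool, at 4532 against 4361 in the Ad-control pool, a log2 difference of 0.07. In gene order Ces1e stands between Ces1d and Ces1f, whose values were -0.29 and -0.36. The gap from Ces1e to Ces1f of 0.43 is smaller than 0.50, which is 1 SD of probe set error for a difference between genes. Gusb, the gene of beta-glucuronidase itself, had a log2 difference of -0.0575, and its other probe set gave -0.20.

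In the Ces2 group, Ces2a read 17349 in the Ad-PDK4 pool and 27243 in the Ad-control pool, a log2 difference of -0.64 or 1.81 SDs of probe set disagreement. Ces2e, a Ces2 gene expressed in liver and intestine, read 3524 in Ad-PDK4 and 3817 in Ad-control, a log2 difference of -0.10. Ces2a was lower than Ces2e by 0.54, just beyond the probe set error of 0.50 for such a gap, which is only 1 SD. It was within that error with loess centring (0.48), with quantile normalization (0.43) and under a 30th percentile floor, where the error was 0.67.

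The probe set shared by Ces3a and Ces3b read 50184 in the Ad-PDK4 pool and 67291 in the Ad-control pool. Its log2 difference of -0.41 could come from either gene or both.

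Compared with one another, most pairs of members lay within 1 SD of probe set error. Of the 28 pairs among the 8 values, 3 differed by more than 1 SD of a gap (0.50). Ces2a was in each of them, set against Ces1c, Ces1e and Ces2e. A limit of 1 SD is low, so passing it does not show that the members of a pair differ. This count was 1 under a 30th percentile floor, 2 after loess centring or quantile normalization and 6 under a 70th percentile floor. Of the 8 values, 4 lay within 1 SD of 0, 4 lay beyond 1 SD and 0 beyond 2 SDs. These counts use the SD pooled over genes of every brightness above the floor, while the members are bright. Under a 70th percentile floor the probe set error of a gap fell to 0.36, so the counts depend on the floor.

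At a threshold of 1.5-fold, 1 of the 8 values (Ces2a) was lower and 0 were higher in the Ad-PDK4 pool. Over all 12122 values above the floor on at least 1 array, 5.58% were 1.5-fold lower and 11.0% were 1.5-fold higher, so a single member in 8 is no more than a description. At 2-fold the counts were 0 lower and 0 higher, against 0.891% and 3.58% of all values. The median of the family was -0.32, beside 0.022 over all values.

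Bright genes as a whole leaned the same way. Among the 1394 genes at least as bright as the dimmest carboxylesterase (a mean signal of 3668, a cut chosen after the values were seen), the median log2 difference was -0.071. A value below 0 was found for 62.4% of them, against 46.7% of all genes. Of these bright genes, 2.58% were 1.5-fold lower and 2.51% were 1.5-fold higher in the Ad-PDK4 pool. Among them 2.15% read lower than Ces2a, 8.61% lower than the Ces3 probe set, 8.75% lower than Ces1g, 11.5% lower than Ces1f and 18.8% lower than Ces1d. For Ces1c, Ces2e and Ces1e, 40.2%, 44.6% and 72.2% of the bright genes read lower. With a centring that follows brightness (loess), the family median moved to -0.23 and Ces2a to -0.55, so that it no longer passed 1.5-fold.

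**Figure D2:**
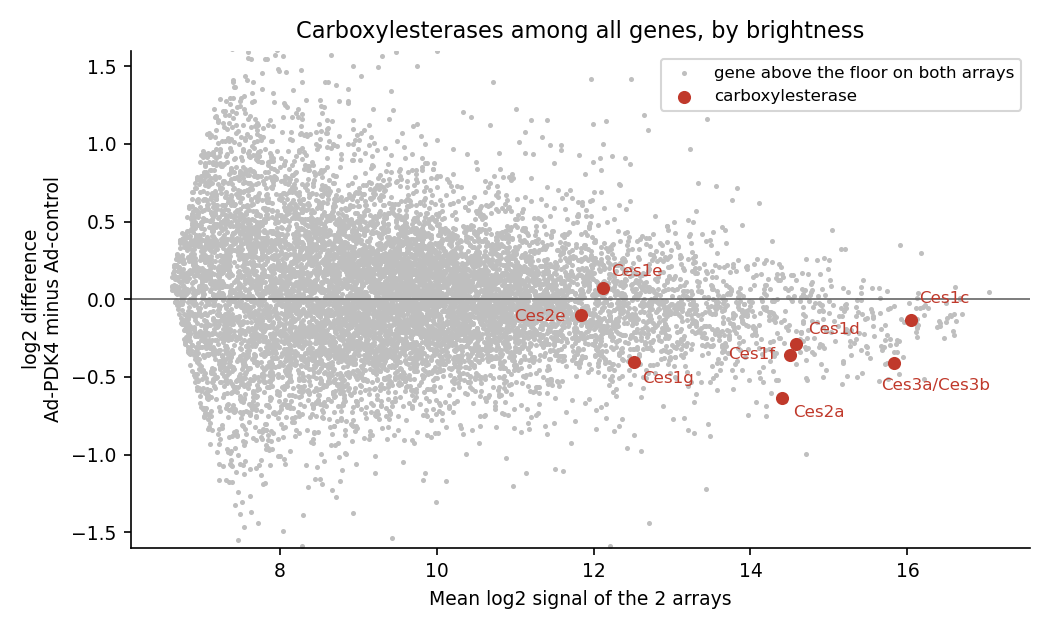
Log2 difference (Ad-PDK4 minus Ad-control, vertical axis) against the mean log2 signal of the 2 arrays (horizontal axis) for the 10390 genes above the floor on both arrays in grey and the 8 carboxylesterase values in red, each from 1 array per group. The vertical axis ends at 1.6 and leaves out 92 genes. The carboxylesterases lie in the bright part of the plot, where the cloud is narrower, with Ces2a near its lower edge and Ces1e just above 0.

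Other Ces genes that are not in the list had values above 0 on their brightest probe sets. Of 10 such genes, 6 had a probe set, 5 were above the floor on at least 1 array and 3 were above it on both. Ces1h and Ces4a were above it in the Ad-PDK4 pool alone, so their values are bounds that could not fall below 0. The 3 above it on both, Ces2b, Ces2g and Ces5a, had values above 0. Of the 5 values, 2 were at least 1.5-fold higher, Ces4a and Ces5a. The count was 1 with the median of probe sets, under a 70th percentile floor and without _x_at, _s_at and _a_at probe sets. The probe sets of Ces5a disagree in direction. Among all values measured, 11.0% were 1.5-fold higher. Ces2g read 1090 in Ad-PDK4 and 927 in Ad-control (a log2 difference of 0.25), and Ces2b read 364 in Ad-PDK4 and 268 in Ad-control (0.45). Both genes lie among the Ces2 members in the second cluster, and their signals were nearer the floor.

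Ces4a, which follows Ces3b in the second cluster, stood furthest from the listed genes. Its signal was 346 in the Ad-PDK4 pool and 75.2 in the Ad-control pool, below the floor there, and it was at least 3.75-fold higher. This bound depends on the floor, and was 1.24-fold where the floor was set at the 70th percentile. Ces1h was below the floor in the Ad-control pool and at least 1.37-fold higher.

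The probe sets of Ces5a, the gene of the urinary esterase cauxin, disagreed. The brightest read 522 in the Ad-PDK4 pool and 258 in the Ad-control pool, a log2 difference of 1.03, but another read 35.4 in Ad-PDK4, below the floor, and 139 in Ad-control, a bound of -0.46. Both are of the _x_at kind, so the direction of Ces5a is not settled. Ces2f was below the floor on both arrays.

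**Figure D3:**
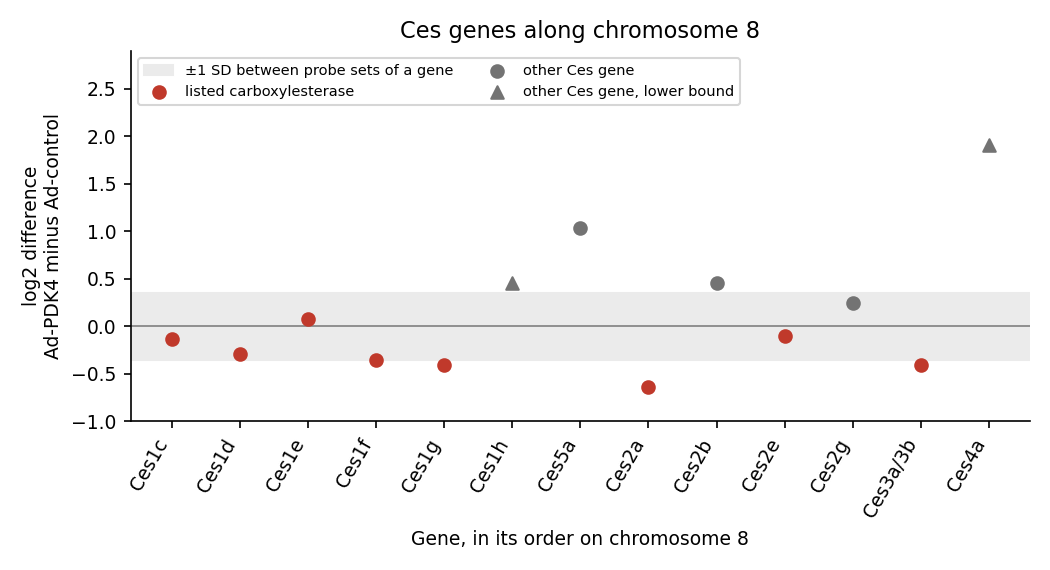
Log2 difference (Ad-PDK4 minus Ad-control, 1 array each) of the measured Ces genes in their order along chromosome 8, relative to the median probe set, with listed carboxylesterases in red and other Ces genes in grey (triangles are lower bounds). The grey band is 1 SD (0.35) between probe sets of a gene. Red points lie at or below 0 except Ces1e at 0.07, and grey points lie above 0, from Ces2g at 0.25 to Ces4a at 1.91; Ces5a is drawn by its brightest probe set, and another of its probe sets points the other way. All but Ces2a among the red points would lie above 0 with the arrays centred on the poly-A controls.

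Other liver enzymes that split small esters or epoxides read slightly lower as well. Of 11 measured genes, 11 were within 1.5-fold and 10 lay below 0, with a median of -0.23 (0.03 when centred on the hybridization controls). Of all 12122 values, 10111 were within 1.5-fold and 46.7% lay below 0, as did 62.4% of the bright genes. The lowest were Pon2 (-0.46) and Pon1 (-0.395), Pon1 being the serum paraoxonase that liver secretes. The highest were Bche, butyrylcholinesterase, with 0.28 and probe sets from -0.15 to 0.62, and Cmbl, a carboxymethylenebutenolidase homologue, with -0.014. Hepatocyte markers had a median of -0.18 (0.07 when centred on the hybridization controls), with 12 of 12 within 1.5-fold, from Pck1 (-0.52), of gluconeogenesis, to Alb (0.08), serum albumin.

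Relative to the median probe set, lipid hydrolases outside the Ces family had their median on the other side of 0 from the listed carboxylesterases. Of 18 measured neutral lipid hydrolases and their cofactors, 3 were at least 1.5-fold higher, 1 was lower and 14 were within that range, with a median of 0.18. The shares over all values measured were 11.0% higher and 5.58% lower. Centring on the poly-A controls moved the median of all genes by 0.54. With it, 12 of the 18 were 1.5-fold higher and their median was 0.72, beside 0.22 for the carboxylesterases. Cel, the carboxyl ester lipase of the exocrine pancreas, read 5168 in the Ad-PDK4 pool and 683 in the Ad-control pool, a log2 difference of 2.93. It is also one of the acinar markers given above, whose members all read higher in that pool. G0s2, the inhibitor of adipose triglyceride lipase, was next (1.18), with 9626 in Ad-PDK4 and 4280 in Ad-control. The third was Abhd5, the activator of the same lipase, with 0.94, although its other measured probe set gave -0.043. The lowest members measured on both arrays were Abhd12 (-0.29) and Pnpla8 (-0.088), and each had another probe set above 0 (0.78 and 0.54). Pnpla3, below the floor in the Ad-PDK4 pool, had a bound of -0.75.

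Genes that load triglyceride into lipoproteins (the step that Ces1d serves) or store it in droplets had a median of 0.18 over 14 measured genes. Of these, 3 were 1.5-fold higher, 0 lower and 11 within 1.5-fold, beside 11.0% higher and 5.58% lower over all values measured. Centred on the poly-A controls, 9 were higher and the median was 0.72. With quantile normalization 2 were higher and 1 lower. Plin2, which coats lipid droplets, had a log2 difference of 0.62 (21769 in Ad-PDK4 and 14311 in Ad-control) and Dgat1, an enzyme of triglyceride synthesis, one of 0.61. Cidec, another droplet protein, was below the floor in the Ad-control pool and at least 2.56-fold higher. Tm6sf2 (-0.55), which acts in lipoprotein lipidation, and Cideb (-0.091), of lipoprotein maturation, were the lowest. Mttp, the microsomal transfer protein, gave 0.13.

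Transcripts of the factors that are known to regulate carboxylesterase genes differed little. Of 13 measured, 12 were within 1.5-fold and the median was -0.038 (0.22 when centred on the hybridization controls). Most genes were within that range, 10111 of all 12122 values. All 13 regulators were within it without centring, under a 30th percentile floor, with the median of probe sets or a pseudocount of 32. Centred on the poly-A controls, 2 were at least 1.5-fold higher. Nfe2l2, the gene of the oxidative stress factor NRF2, was the highest (0.59, with 5472 in Ad-PDK4 and 3681 in Ad-control), followed by Ahr (0.12), the aryl hydrocarbon receptor. Rxra (-0.25), the common partner of nuclear receptors, and Srebf1 (-0.21), a factor of lipid synthesis, were the lowest. The gene of CAR, Nr1i3, gave -0.21, and that of PXR, Nr1i2, gave -0.038 on its brightest probe set and -0.82 on the other.

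Targets that CAR and PXR share with some carboxylesterases went both ways. Of 18 measured, 3 were at least 1.5-fold higher, 2 were lower and 13 within 1.5-fold, with a median of -0.097 that turned to 0.01 with loess centring. All values measured gave 11.0% higher and 5.58% lower. Cyp2b9 (0.94) and Cyp2c55 (0.70), both cytochrome P450 enzymes, were the highest measured on both arrays. Alas1 (-0.99), which starts heme synthesis, and Slco1a4 (-0.80), an organic anion transporter, were the lowest. Gadd45b, a stress sensor gene, was below the floor in the Ad-control pool and at least 4.00-fold higher.

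Genes of retention and folding in the endoplasmic reticulum, where most carboxylesterases reside, were within 1.5-fold in 10 of 10 measured cases. So were 10111 of all 12122 values. The median of these genes was -0.069 (0.19 when centred on the hybridization controls). Pdia4 (0.30) and Pdia3 (0.27), both disulfide isomerases, were the highest, and P4hb (-0.32), another disulfide isomerase, and Kdelr2 (-0.26), a retention receptor, the lowest.

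**Figure D4:**
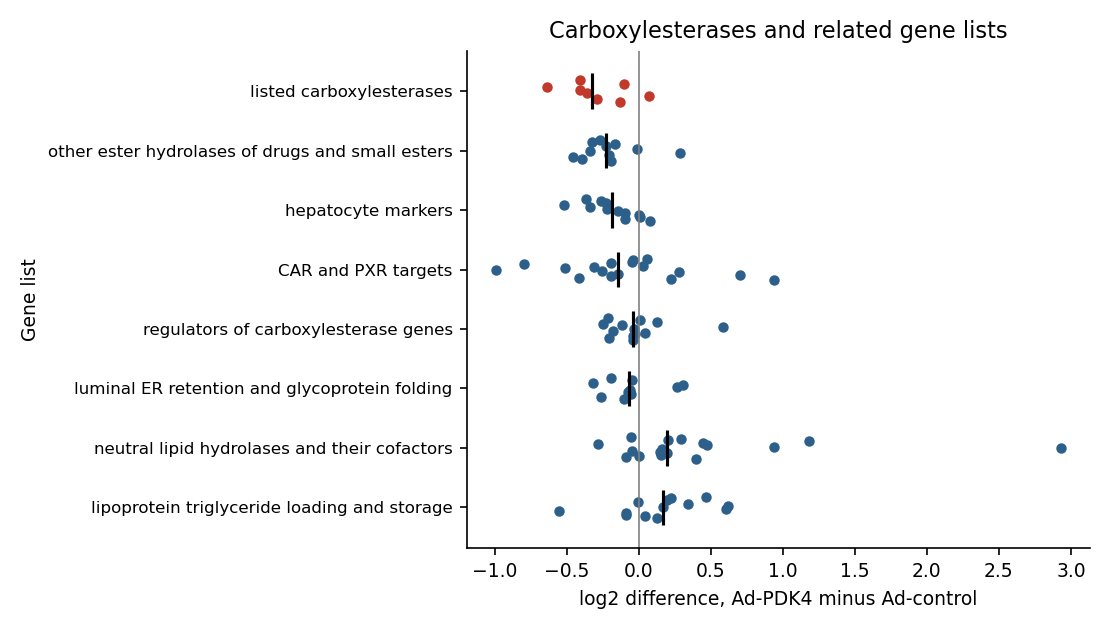
Log2 difference (Ad-PDK4 minus Ad-control, 1 array each) of each gene above the floor on both arrays, for the 8 carboxylesterase values in red and 7 related lists in blue. Black bars are medians of the points shown. The carboxylesterase median of -0.32 is the lowest of the 8 medians, relative to the median probe set (without _x_at, _s_at and _a_at probe sets it is -0.21, beside -0.22 for the other ester hydrolases), and the 2 lipid lists have medians above 0 (0.19 and 0.17); centring on the poly-A controls moves every point up by 0.54, which leaves the order as it is and puts all medians above 0.

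Markers of other cell types known to express carboxylesterases were low or gave no common direction. Of 9 intestinal markers on the array, 6 were below the floor on both arrays, and the highest of those above it on both was Fabp2 (0.57), which liver also expresses. Of 6 kidney tubule markers, 5 were below the floor on both arrays and 0 above it on both, and of 5 lung epithelium markers, 3 were below it on both and 0 above it on both. Adipocyte markers were above the floor on both arrays in 3 cases, from Fabp4 (-0.018) to Retn (0.50). Of 8 measured Kupffer cell and macrophage markers, 2 were at least 1.5-fold lower, Vsig4 (-1.19) and Clec4f (-1.13), and Cd68 (0.37) was the highest. The share 1.5-fold lower was 5.58% over all values measured. The part of these cells in the carboxylesterase values was not tested.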

How the data were processed

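The authors' deposited table gives signal intensity values on a linear scale for 45101 probe sets on 2 arrays. Biotin-labelled cRNA was made by the Affymetrix procedure, per the labels' protocols; the summary method and background correction were not given in the sources used here. Control probe sets (64) were set aside. Names came from the platform annotation, where 34958 probe sets carried 1 gene symbol, 932 several and 9160 none; 34754 were found in RefSeq (GRCm38.p6). The probe set annotated to Ces3a and Ces3b was kept as a shared value. Signals were put on the log2 scale with a floor at the 50th percentile of each array, and differences were centred on their median over 20151 probe sets above it on both, a shift of -0.015. A gene was taken by its brightest probe set. Where only 1 array reached the floor, the other was set at the floor and the fold is a bound ("at least N-fold"); where neither did, no difference is given. The calculation was tested on simulated data. Genes named were all members, all other Ces genes, the 2 highest and 2 lowest of each related list measured on both arrays, Gusb and Pdk4. Extremes were named for hepatocyte, adipocyte and macrophage markers, and the highest alone for intestinal markers. For the other marker lists no extremes were named. Genes named beyond these (Abhd5, Pnpla3, Cidec, Mttp, Nr1i3, Nr1i2, Gadd45b and Clec4f) were chosen after their values were seen. The members and lists were chosen with earlier results of these data known. Alternatives changed the floor, the centring, the probe set per gene, a pseudocount and the fold. The number of arrays limits the precision. Python 3.11.15 with numpy 2.4.6, pandas 2.3.3 and statsmodels 0.14.6 was used.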

Additional observations from a re-analysis of the deposited data

How the results depend on the processing

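The directions given are relative to the median probe set. Centring on the hybridization controls or on the poly-A controls moved the median of all genes by 0.26 and 0.54. With the poly-A controls the carboxylesterase median became 0.22, 7 of 8 values lay above 0, 1 (Ces1e, 0.61) was 1.5-fold higher and 0 were lower. With the hybridization controls the median was -0.068 and 5 of 8 values lay below 0. The count of members 1.5-fold lower, 1 as reported, was also 0 with loess centring, quantile normalization, the hybridization controls or a 2-fold threshold. Ces2a lay between -0.65 and -0.54 over the alternatives other than the spike-in controls, on both sides of 1.5-fold. Over those same alternatives the family median lay between -0.36 and -0.21, the last without _x_at, _s_at and _a_at probe sets, which leaves 6 values. Each of the 8 values that an alternative could give moved by less than the probe set SD, except under the poly-A controls. Ces4a, outside the list, moved further with the floor, from a bound of 1.91 to one of 0.31 at the 70th percentile. The number of member pairs beyond 1 SD of probe set error, 3 as reported, ranged from 1 (floor at the 30th percentile) to 6 (70th percentile). This check was added after seeing the data. No paired analysis was possible because each group is 1 array of 1 pool, and no replicate could be left out. Signals of all members were far above the floor, and whether the brightest approach saturation was not tested.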
